A study of Rattus norvegicus with 9 samples.

Results

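Potassium channel genes were followed in the prefrontal cortex of 9 male Lewis rats. The members are all genes whose only symbol in the array's platform annotation begins with Kcn, which gave 73 genes with 108 probe sets, of 10411 genes with a single symbol. Their values were not used to choose them. Each of the 9 rats, from an inbred strain, gave 1 Affymetrix array of frontal cortex taken in front of Bregma without the olfactory bulb. No rat was treated, and the labels form 1 group. Behaviour had been scored in every rat, as startle, locomotion, sugar feeding and plus maze. The labels give no unit for these values and no age, only a weight of 200 to 250 g, and they state that the brains were taken 12 days after the last test. The series design names 3 of the tests and leaves out the plus maze. The 9 rats come from an experiment in which 20 were tested.

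Potassium channels let potassium leave or enter a cell and so set the resting potential and end the action potential. Voltage-gated alpha subunits (Kcna, Kcnb, Kcnc, Kcnd, Kcnh, Kcnq) open on depolarisation, and the silent subunits (Kcnf, Kcng, Kcns, Kcnv) form channels only together with other alpha subunits. Inward rectifiers (Kcnj) and 2-pore channels (Kcnk) act near the resting potential, and calcium- or sodium-activated channels (Kcnma, Kcnn, Kcnt) follow the ions that enter during firing. Auxiliary proteins (Kcnab, Kcne, Kcnip, Kcnmb) change the gating or traffic of these pores. In the cortex, Kcnc channels are known for fast firing in interneurons, and Kcnj10 is known as the main inward rectifier of astrocytes.

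The values are log2 expression, so 1 unit is a 2-fold difference. Array medians lay between 4.11 and 4.28. Tests used the probe sets above the lowest 40% by mean level, which set the limit at a mean of 3.22 and left 9520 probe sets. Of the Kcn probe sets, 46 of 108 passed (42.6%, against 60.0% of all probe sets), and they cover 32 genes. The 62 Kcn probe sets below the limit had a median SD of 0.042, with a highest SD of 0.31 in a Kcnq3 probe set that ran from 1.77 to 2.77, followed by probe sets of Kcng2 at 0.23 and Kcns1 at 0.22. In 45 of these 62 the 9 values followed, at Pearson r above 0.9, the array floor profile, which is the median deviation of the non-Kcn probe sets below the limit on each array. That profile ran from -0.052 in rat 2 to 0.051 in rat 3. The share of all probe sets below the limit that followed it was not computed, so the 45 are not read as particular to Kcn genes. Among the tested Kcn probe sets 2 followed it at that r, those of Kcne2 and Kcnk10 (4.35%, against 4.31% of all tested probe sets). A gene below the limit is therefore given no level here, and its absence from the tissue is not shown. The limit fell between Kcnq3 at 3.22, Kcnk10 at 3.25 and a Kcnip3 probe set at 3.30 on the upper side, and probe sets of Kcnj9 at 3.18, Kcnip1 at 3.13 and Kcne2 at 3.10 on the lower side.

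The tissue label was set against marker genes, and a marker passed if any of its probe sets did. Of 5 cortical glutamatergic markers on the array 4 passed the limit and Tbr1 did not, and all 6 interneuron, 7 astrocyte and 5 oligodendrocyte markers on the array passed. Of 6 microglial markers 4 passed, without Cx3cr1 and Itgam, and of 6 endothelial and mural markers 4 passed, without Pecam1 and Rgs5. For striatum only Ppp1r1b of 5 passed, while Adora2a, Drd1, Drd2 and Rgs9 lay below it. For olfactory bulb Calb2 of 2 passed and Th did not. The arrays of rats 8 and 9 were looked at apart from the rest. Of all tested probe sets, 26.9% had both rats beyond the range of the other 7, with 9.33% above and 17.6% below. In whole tissue, fewer cells of a type and less RNA per cell cannot be told apart.

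**Figure D1:**
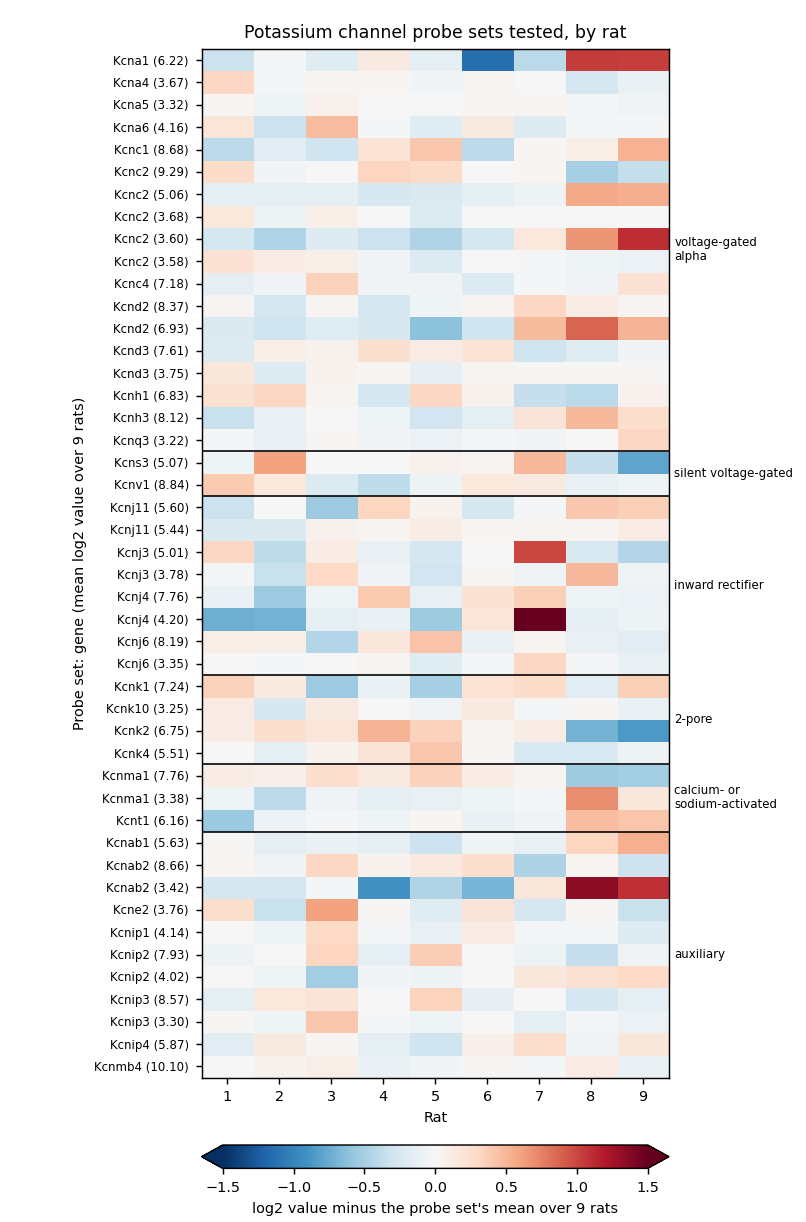
Log2 deviation of each of the 46 tested Kcn probe sets (rows, grouped by role) from its own mean in each of the 9 rats (columns), with the colour scale ending at 1.5 units on either side. The columns of rats 8 and 9 hold the strongest colours in several rows, among them Kcna1 and Kcnk2, and the low Kcnj4 probe set reaches 6.44 in rat 7.

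Of 23 voltage-gated alpha genes, 12 had a probe set above the limit. They were Kcna1, Kcna4, Kcna5, Kcna6, Kcnc1, Kcnc2, Kcnc4, Kcnd2, Kcnd3, Kcnh1, Kcnh3 and Kcnq3, and 7 of their 18 tested probe sets lay in the top 30% of all probe sets, at a mean of 6.87 or more. Kcnc1, a fast delayed rectifier, had a mean of 8.68 ± 0.34 (SD, n = 9). The brightest Kcnc2 probe set, for a second subunit of that subfamily, had a mean of 9.29 ± 0.28 (SD, n = 9). Kcnd2 and Kcnd3, which carry the A-type current of dendrites, had brightest probe sets at 8.37 ± 0.18 and 7.61 ± 0.19 (SD, n = 9). Kcnh3, an ether-a-go-go relative of the forebrain, had a mean of 8.12 ± 0.27 (SD, n = 9). Probe sets differ in how strongly they bind their target, so these values are not ranked against each other. The genes below the limit were Kcna2, Kcna3, Kcnb2, Kcnd1, Kcnh2, Kcnh4, Kcnh5, Kcnh6, Kcnh7, Kcnh8 and Kcnq1. Kcna2, the usual partner of Kcna1 in axons, read 2.95 to 3.07 and followed the floor profile at r = 0.910.

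Among the 7 silent genes, Kcns3 and Kcnv1 passed. Kcnv1, a modifier of Kcnb channels, had a mean of 8.84 ± 0.23 (SD, n = 9), and Kcns3 had a mean of 5.07 ± 0.41 (SD, n = 9). Kcng2, Kcng3, Kcns1, Kcns2 and Kcnv2 lay below the limit.

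Of 15 inward rectifier genes, 4 passed with 8 probe sets. They were Kcnj3 and Kcnj6, pores opened by G proteins, Kcnj4, a strong rectifier of forebrain neurons, and Kcnj11, the pore of the ATP-sensitive channel. The brightest probe sets of Kcnj6 and Kcnj4 had means of 8.19 ± 0.24 and 7.76 ± 0.29 (SD, n = 9). The 11 below the limit were Kcnj1, Kcnj2, Kcnj5, Kcnj8, Kcnj9, Kcnj10, Kcnj12, Kcnj13, Kcnj14, Kcnj15 and Kcnj16. Kcnj10 read 2.35 to 2.43 in its only probe set and followed the floor profile at r = 0.987. Every astrocyte marker on the array passed the limit by some probe set. Other probe sets of these markers did not, such as a Gja1 one at 2.08 and an Slc1a2 one at 2.80. The brighter probe set of Kcnj16, the partner of Kcnj10, read 3.00 to 3.08 with r = 0.983.

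Of 11 genes for 2-pore channels, Kcnk1, Kcnk2, Kcnk4 and Kcnk10 passed. Kcnk1 had a mean of 7.24 ± 0.35 (SD, n = 9). Kcnk2, a channel opened by stretch and fatty acids, had a mean of 6.75 ± 0.47 (SD, n = 9), and its relative Kcnk4 had a mean of 5.51 ± 0.20 (SD, n = 9). Kcnk3, Kcnk5, Kcnk6, Kcnk9, Kcnk12, Kcnk13 and Kcnk15 lay below the limit.

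Of 5 calcium- or sodium-activated genes, Kcnma1 and Kcnt1 passed. Kcnma1, the large-conductance calcium-activated pore, had a bright probe set at 7.76 ± 0.31 and a low one at 3.38 ± 0.30 (SD, n = 9). Kcnt1, a sodium-activated channel, had a mean of 6.16 ± 0.30 (SD, n = 9). Kcnn1, Kcnn3 and Kcnn4 lay below the limit.

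Auxiliary genes passed in 8 of 12 cases, with 11 probe sets. Kcnmb4, the neuronal beta subunit of Kcnma1, had a mean of 10.10 ± 0.081 (SD, n = 9) and spanned 9.99 to 10.23 over the 9 rats. The brightest probe sets of Kcnab2, Kcnip3 and Kcnip2 had means of 8.66 ± 0.25, 8.57 ± 0.19 and 7.93 ± 0.22 (SD, n = 9). Kcnab2 is a cytoplasmic beta subunit of Kcna channels, and the Kcnip proteins are calcium sensors bound to Kcnd channels. Kcnab1, Kcnip1, Kcnip4 and Kcne2 also passed, and Kcnab3, Kcne1, Kcne3 and Kcnmb1 did not.

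Variation over the rats was somewhat wider in the tested Kcn probe sets than over all tested probe sets, with a median SD of 0.246 against 0.190. Over rats 1 to 7 alone the medians were 0.199 and 0.156. A range above 1 log2 unit was found in 10 of 46 Kcn probe sets (21.7%), against 18.7% of all tested. The 10 include a low Kcnab2 probe set that passed the limit only through its values in rats 8 and 9. Over rats 1 to 7 the count was 5 of 46, against 7.68% of all tested. The share of wide Kcn probe sets is thus near the background. By 1 probe set per gene, the widest were Kcna1, Kcnk2, Kcnj3, Kcns3, Kcnk1 and Kcnc1.

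Kcna1, an axonal delayed rectifier mutated in a human episodic ataxia, ran from 5.09 through a median of 6.08 to 7.26, a 4.51-fold span. Rats 8 and 9 were the highest, both at 7.26, and rat 6 was the lowest. Kcnk2 ran from 5.90 through a median of 6.87 to 7.27. Rats 9 and 8 were its lowest, at 5.90 and 6.05, and the other 7 stayed between 6.80 and 7.27, with an SD of 0.161 among them. Kcnj3 ran from 4.58 through 4.90 to 6.01 in its brighter probe set. Its high value was that of rat 7. Kcns3 ran from 4.28 through 5.07 to 5.67, with rat 9 lowest and rat 2 highest. Kcnk1 ran from 6.69 in rat 3 through 7.38 to 7.60 in rat 9. At the other end of the scale, Kcna5 had an SD of 0.044, the smallest among tested Kcn probe sets, at a mean of 3.32 near the limit.

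In 16 of the 46 Kcn probe sets (34.8%) rats 8 and 9 lay beyond the other 7, against 26.9% of all tested. Both rats were above in 11 Kcn probe sets (9.33% of all tested) and below in 5 (17.6% of all tested). The 11 include the low Kcnab2 probe set, which passed the limit only through these rats. These arrays were set apart on the same values, so the differences are a description with no test. Kcna1 averaged 7.26 in rats 8 and 9 and 5.92 in the other 7, a difference of 1.34. Kcnd2, in its lower probe set, averaged 7.62 against 6.73. Kcnt1 averaged 6.60 against 6.04. Kcnab1, a beta subunit that inactivates Kcna channels, averaged 6.06 against 5.51. Kcnj11 and Kcnh3 were higher in the pair by 0.49 and 0.48. Below the others lay Kcnk2, at 5.97 against 6.97, and Kcns3, at 4.50 against 5.23. The bright probe sets of Kcnma1, at 7.24 against 7.91, and of Kcnc2, at 8.86 against 9.42, also lay below, as did Kcna4 by a difference of -0.22. Kcnmb4 averaged 10.11 against 10.10. Markers of cell types also lay beyond the other 7 in these arrays: 2 of 7 glutamatergic probe sets were above; of 7 interneuron probe sets 1 was above and 3 below; of 12 astrocyte probe sets 4 were above and 3 below; 2 of 9 oligodendrocyte probe sets were above and 1 of 4 microglial ones was below. Camk2a and Gad2 probe sets differed by 1.62 and 1.78, while Vip and a Gad1 probe set differed by -0.60 and -0.40. Aqp4 probe sets were on both sides, at 1.98, 0.51 and -0.47. The 4 endothelial and mural, 1 striatal and 1 olfactory bulb probe sets tested had 0 beyond. The part of these markers in the Kcn differences was not tested.

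**Figure D2:**
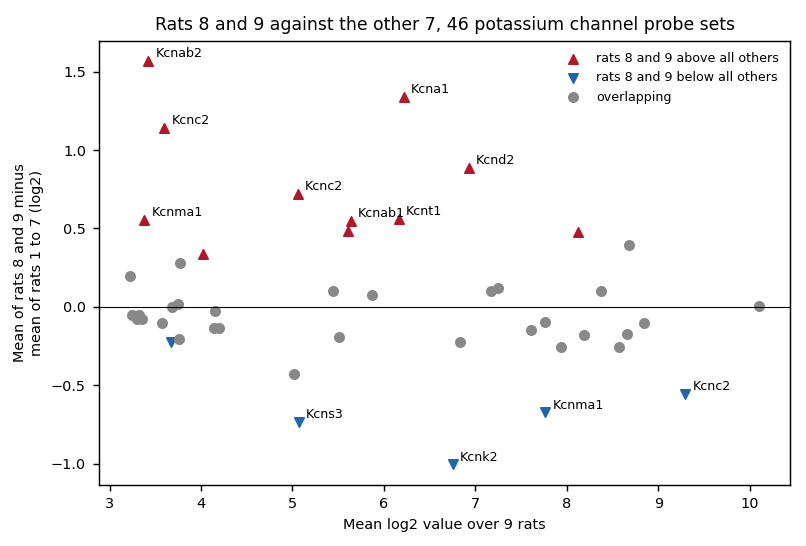
Mean of rats 8 and 9 minus the mean of rats 1 to 7 (log2, vertical axis) against mean log2 expression over all 9 rats (horizontal axis), 1 point per tested Kcn probe set. The low Kcnab2 probe set at 1.57, Kcna1 at 1.34 and a dim Kcnc2 probe set at 1.14 are the highest points, and Kcnk2, at 5.97 against 6.97, is the lowest. That Kcnab2 probe set passed the limit only through rats 8 and 9.

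Probe sets of the same gene often went separate ways. Of the 11 genes with several tested probe sets, the difference of rats 8 and 9 from the others had the same sign in all of them for 5 genes and opposite signs for 6. For Kcnc2 the bright probe set was lower in the pair by -0.55, while 2 of the 4 dimmer ones were higher by 1.14 and 0.72. The dimmest of these 3 ran from 3.14 to 4.71, and the middle one from 4.82 to 5.63 with rats 8 and 9 on top. For Kcnma1 the bright probe set differed by -0.67 and the low one by 0.56. For Kcnab2 the bright probe set differed by -0.17 and the low one by 1.57, and the low one reached 4.76 and 4.52 in rats 8 and 9 against at most 3.59 elsewhere. The low Kcnab2 probe set averaged 3.07 in rats 1 to 7, under the limit of 3.22. It was thus tested only through its values in rats 8 and 9, and its difference is not read as a result. For Kcnd2 both probe sets were higher in the pair, by 0.89 and 0.10. A difference given for these genes therefore depends on which probe set is read. The low Kcnj4 probe set had the widest range of any tested Kcn probe set, from 3.47 through 4.07 to 6.44, a 7.86-fold span. It rests on rat 7, since the next highest rat was at 4.38, and the bright Kcnj4 probe set ran only from 7.22 to 8.15.

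**Figure D3:**
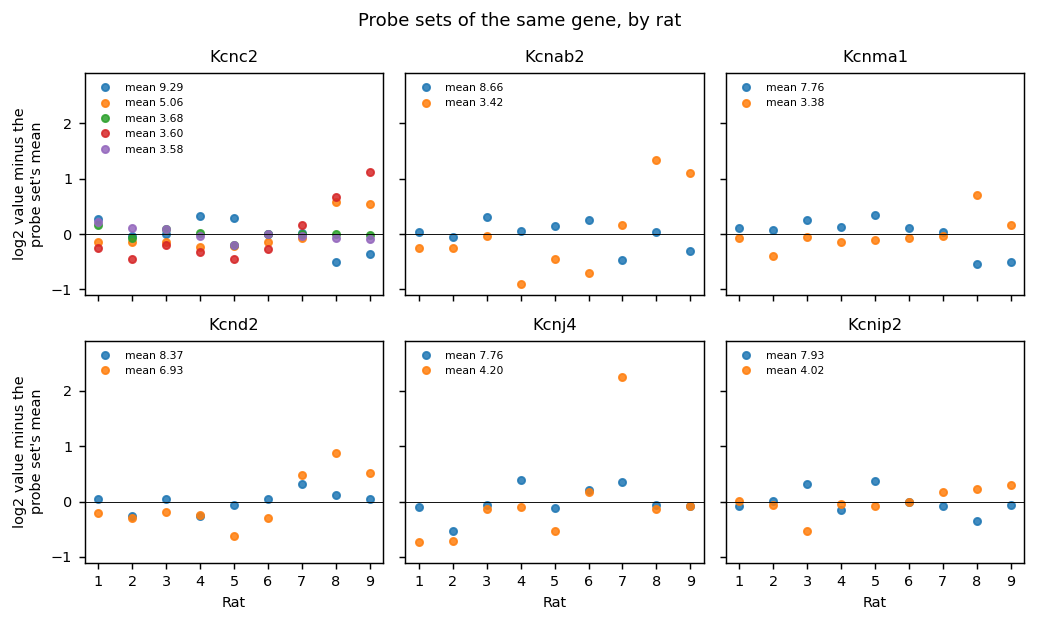
Log2 value minus the probe set's own mean (vertical axis) in each of the 9 rats (horizontal axis) for the tested probe sets of Kcnc2, Kcnab2, Kcnma1, Kcnd2, Kcnj4 and Kcnip2, 1 colour per probe set, with its mean in the key. In Kcnc2 and Kcnma1 the bright points are lower and some low points higher in rats 8 and 9 than elsewhere, and in Kcnj4 the low probe set stands apart in rat 7, where its uncentred value was 6.44.

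The relation to behaviour was measured with limma as the slope of log2 expression per SD of the behaviour over the 9 rats. With Benjamini-Hochberg adjustment over all 9520 probe sets, 0 of 46 Kcn probe sets passed 0.05 for any of the 4 behaviours (background 0% of all tested in each). Slopes had both signs: 24 positive and 22 negative for startle, 19 and 27 for locomotion, 16 and 30 for plus maze, and 25 and 21 for sugar feeding. By role, startle slopes were negative in 7 of 8 inward rectifier probe sets and positive in 10 of 18 voltage-gated alpha and 7 of 11 auxiliary ones. Plus maze slopes were negative in 7 of 8 inward rectifier and 13 of 18 voltage-gated alpha probe sets. Median slopes were 0.015, -0.010, -0.030 and 0.006 in that order. The 8 inward rectifier probe sets belong to 4 genes, so they are not 8 separate members. No share of each sign over all tested probe sets is given, so no pattern by role is read from the sign counts. The counts below use the unadjusted p and are read against the same share of all tested probe sets.

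**Figure D4:**
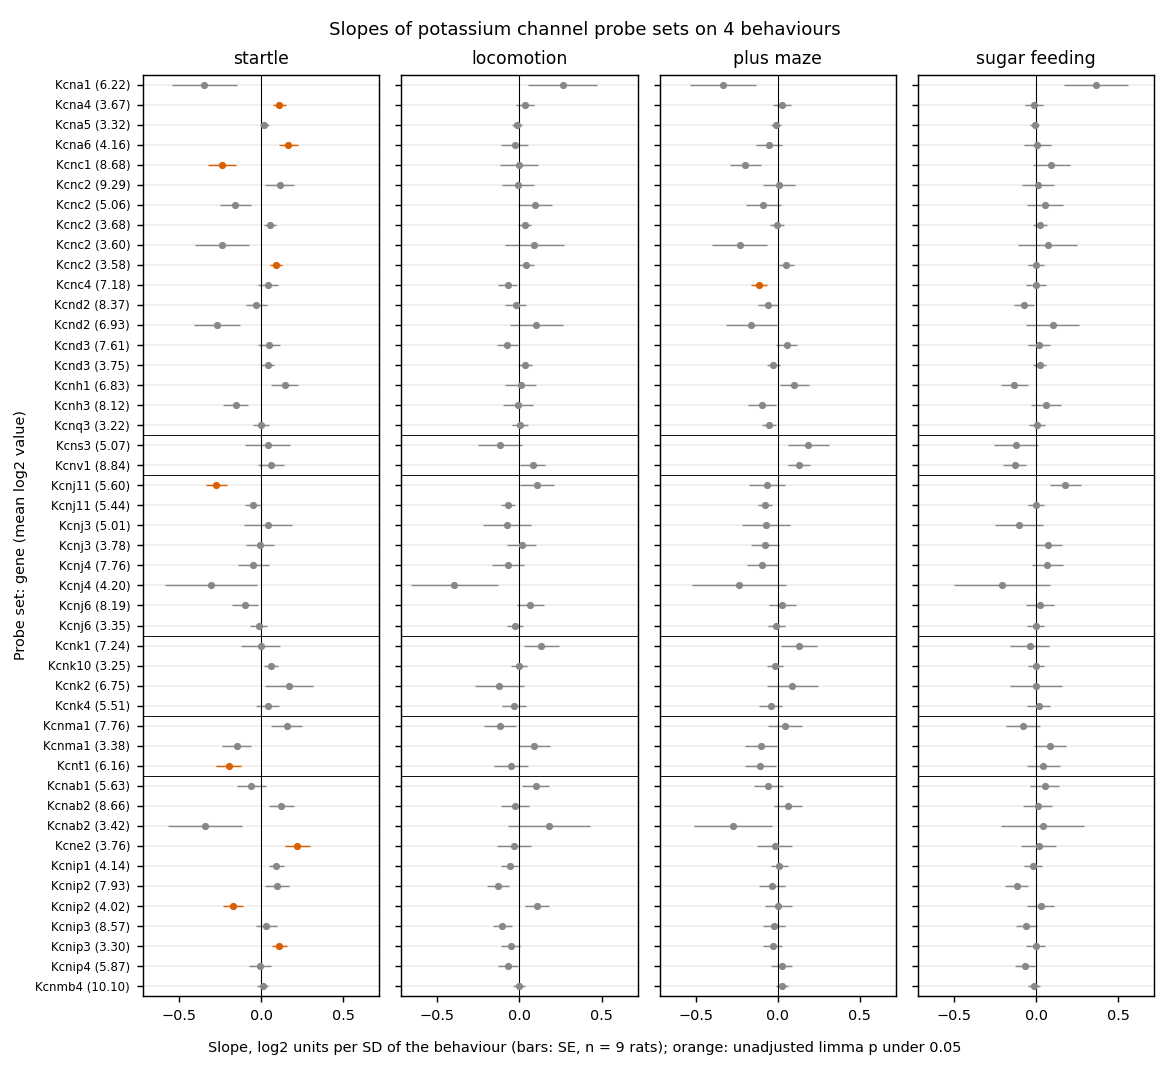
Limma slope of log2 expression per SD of each behaviour (1 panel each) for the tested Kcn probe sets by role, with orange points for unadjusted p under 0.05. Orange points number 9 for startle, 1 for plus maze and 0 for locomotion and sugar feeding.

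Startle values ran from 67.7 in rat 8 to 501 in rat 3. At an unadjusted limma p under 0.05 there were 9 Kcn probe sets (19.6%), against 13.2% of all tested. Of them 5 had a positive slope (8.9% of all tested did) and 4 a negative one (4.34% of all tested did). The lowest limma adjusted p among Kcn probe sets was 0.359. Without rats 8 and 9 the count was 8 (14.6% of all tested), but not of the same probe sets. Kcnt1, Kcna4 and the low Kcnip2 probe set dropped out, and the bright Kcnj6 probe set and Kcnip1 came in. Over all 9 rats the negative slopes belonged to Kcnj11, Kcnc1, Kcnt1 and the low Kcnip2 probe set. The positive slopes belonged to Kcne2, Kcna6, Kcna4 and low probe sets of Kcnip3 and Kcnc2. Among the 16 brighter Kcn probe sets, in the top 30%, Kcnc1 alone remained under that p (6.25%, against 12.5% of all probe sets in the top 30%).

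Kcnj11 ran from 5.05 in rat 3 through a median of 5.61 to 6.00 in rat 8. Its slope was -0.27 ± 0.064 per SD of startle (SE, n = 9; limma adjusted p = 0.359). Rats 8 and 9 lay above the other 7, so the relation is read over those 7 rats. There r came to -0.809 (p = 0.0292 in the exact permutation test) and rho to -0.75 (p = 0.0663 in the same exact test). Rats 1 and 3 had the startle values farthest from the median. With them left out in place of rats 8 and 9, r over the remaining 7, which include rats 8 and 9, was -0.581 (exact permutation p = 0.175). The second Kcnj11 probe set had a slope of -0.05.

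Kcnc1 ran from 8.29 in rats 1 and 6 through a median of 8.72 to 9.20 in rat 9. Its slope was -0.24 ± 0.084 per SD of startle (SE, n = 9; limma adjusted p = 0.359). Over 9 rats r came to -0.699 (p = 0.0386 in the exact permutation test) and rho to -0.683 (p = 0.0503 in the same exact test). Without rats 1 and 3, r was -0.488, and without rats 8 and 9 it was -0.813 (exact permutation p = 0.0321). Kcnt1 had rats 8 and 9 above the others, and over the other 7 its r was -0.505 (exact permutation p = 0.291).

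Kcne2, a single-span auxiliary subunit, ran from 3.43 in rats 2 and 9 through 3.78 to 4.36 in rat 3. Its slope was 0.22 ± 0.077 (SE, n = 9; limma adjusted p = 0.359), and r came to 0.706 (p = 0.0336 in the exact permutation test) and rho to 0.603 (p = 0.0921 in the same exact test). Without rats 1 and 3, r was 0.156, so the relation rests on those rats. Kcna6, a Kcna subunit, ran from 3.84 in rat 2 to 4.62 in rat 3, with r = 0.710 (exact permutation p = 0.0310) and 0.180 without rats 1 and 3. Kcna4, an A-type subunit of axons, had rats 8 and 9 below the others, and over the other 7 its r was 0.593 (exact permutation p = 0.129).

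The array floor profile moved in the same rats. Its own r with startle was 0.605 (exact permutation p = 0.0878, adjusted p = 0.351 over the 4 behaviours) and rho was 0.583 (exact permutation p = 0.108). Without rats 1 and 3 that r was 0.063. The Pearson r with the profile was 0.934 for Kcne2, 0.864 for Kcna6, -0.708 for Kcnc1 and -0.655 for Kcnj11. With the profile as a covariate, chosen after seeing the data, the limma slope was 0.070 for Kcne2 (unadjusted p = 0.212), -0.14 for Kcnc1 (unadjusted p = 0.180) and -0.23 for Kcnj11 (unadjusted p = 0.0228). Markers of cortical glutamatergic neurons had negative startle slopes at an unadjusted limma p under 0.05 in 3 of 7 tested probe sets, 2 of Slc17a7 and 1 of Cux2. Among 7 interneuron probe sets 1 was negative, and among 12 astrocyte probe sets 2 were positive and 1 was negative. Oligodendrocyte, microglial, endothelial, striatal and olfactory bulb lists had 0. Of all tested probe sets 4.34% were negative and 8.9% positive at that p. The summed log2 level, over the brightest tested probe set of each gene, ran from 39.7 in rat 1 to 43.3 in rat 7 for the glutamatergic list. It ran from 46.3 in rat 3 to 49.2 in rat 5 for interneurons and from 57.4 in rat 7 to 61.8 in rat 6 for astrocytes. For oligodendrocytes it ran from 44.2 in rat 6 to 48.0 in rat 8, and for microglia from 23.6 in rat 7 to 26.8 in rat 3. The part of the markers in the startle slopes was not tested. For plus maze, positive slopes under that p were found for 1 astrocyte and 1 endothelial probe set (2.45% of all tested). For sugar feeding they were found for 3 oligodendrocyte probe sets and 1 striatal one (0.767% of all tested), and 0 of these lists had any with locomotion.

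**Figure D5:**
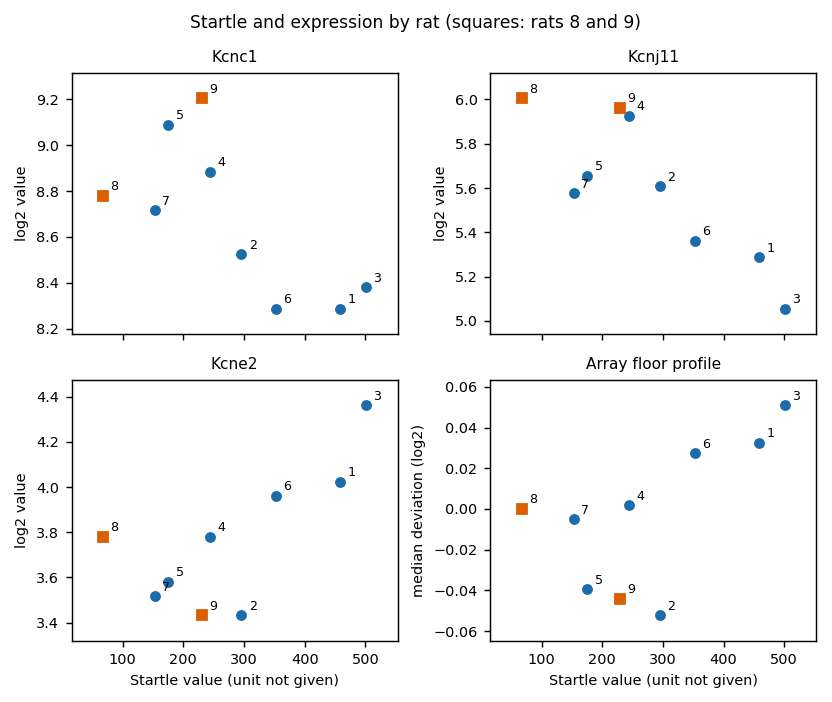
Log2 expression of Kcnc1, Kcnj11 and Kcne2, and the array floor profile (log2 deviation), against the startle value of each rat, 1 point per rat and squares for rats 8 and 9. Kcnc1 and Kcnj11 are lower in rats 1 and 3, which had the highest startle values, while Kcne2 and the floor profile are higher there.

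For locomotion, 0 Kcn probe sets had an unadjusted limma p under 0.05 (1.96% of all tested did, 0.62% with a positive and 1.34% with a negative slope), and without rats 8 and 9 there was 1, Kcnt1 (4.37% of all tested). The first positive slopes by p were those of Kcna1, Kcnk1 and Kcnab1, and the first negative ones those of Kcnip2, Kcnip3 and Kcnc4. Kcna1 had a slope of 0.26 ± 0.21 per SD (SE, n = 9; limma adjusted p = 1.00), and with rats 8 and 9 above the others its r over the other 7 was 0.222 (exact permutation p = 0.571). The Kcna1 slope was 0.72 without rat 1 and 0.13 without rat 8, and over the 7 rats left without rats 1 and 3, which include rats 8 and 9, r was 0.849. Kcnip2, in its bright probe set, ran from 7.58 in rat 8 through 7.88 to 8.30 in rat 5. Its slope was -0.13 ± 0.065 (SE, n = 9; limma adjusted p = 1.00), and r came to -0.588 (p = 0.0941 in the exact permutation test) and rho to -0.717 (p = 0.0369 in the same exact test). Without rats 1 and 3, r was -0.589, and without rats 8 and 9 it was -0.480. Without rat 1, which had the highest locomotion, 4 Kcn probe sets (8.70%) had an unadjusted p under 0.05 in place of 0, against 9.84% of all tested. Without rat 7 there was 1, against 2.56% of all tested.

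For plus maze, the only Kcn probe set under an unadjusted limma p of 0.05 was that of Kcnc4, a fast voltage-gated subunit (2.17% of 46, against 2.99% of all tested, or 2.45% with a positive and 0.546% with a negative slope). It ran from 6.97 in rat 6 through a median of 7.12 to 7.52 in rat 3. Its slope was -0.11 ± 0.050 per SD (SE, n = 9; limma adjusted p = 0.999). Over 9 rats r came to -0.658 (p = 0.0362 in the exact permutation test) and rho to -0.863 (p = 0.0042 in the same exact test). Leaving out rats 2 and 6, the 2 with the highest plus maze value, r was -0.794, and without rats 8 and 9 it was -0.611 (exact permutation p = 0.145). Without those 2 arrays 0 Kcn probe sets were under the p (3.58% of all tested were), and the count was also 0 without rat 1, 7, 8 or 9 alone (2.12% to 4.03% of all tested) and 2 without rat 6 (2.97% of all tested). Kcnv1 led the positive slopes at 0.13 ± 0.068 (SE, n = 9; limma adjusted p = 0.999), and r came to 0.563 (p = 0.123 in the exact permutation test) and rho to 0.555 (p = 0.126 in the same exact test). It ran from 8.45 in rat 4 through 8.77 to 9.23 in rat 1, and r was 0.610 without rats 2 and 6. Kcns3 and Kcnk1 followed on the positive side, and Kcnc1 and Kcna1 on the negative side.

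For sugar feeding, 0 Kcn probe sets had an unadjusted limma p under 0.05 (1.4% of all tested did, 0.767% with a positive and 0.63% with a negative slope), and without rats 8 and 9 there was 1, Kcnk2 (2.75% of all tested). Kcna1 led the positive slopes at 0.36 ± 0.19 per SD (SE, n = 9; limma adjusted p = 1.00). Leaving out 1 rat moved that slope between 0.22, without rat 6, and 0.89, without rat 4. Over the 7 rats without 8 and 9 r came to 0.648 (p = 0.156 in the exact permutation test) and rho to 0.679 (p = 0.110 in the same exact test). Kcnj11 and Kcnc1 followed. Kcnv1 led the negative slopes at -0.13 ± 0.068 (SE, n = 9; limma adjusted p = 1.00), and r came to -0.570 (p = 0.113 in the exact permutation test) and rho to -0.483 (p = 0.194 in the same exact test). Leaving out rats 4 and 8, whose values lay farthest from the median, r was 0.136, so the relation rests on those rats. Kcnip2 and Kcnh1 followed. Without rat 4, which had the highest sugar feeding, 5 Kcn probe sets (10.9%) had an unadjusted p under 0.05 in place of 0, against 14.0% of all tested. Without rat 1, 7 or 9 there was 1, against 1.09% to 1.44% of all tested.

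In the genes with several tested probe sets, the slopes had the same sign in all of a gene's probe sets for 6 of 11 genes in startle, 2 in locomotion, 5 in plus maze and 3 in sugar feeding. Kcnip3 was among them for each of the 4 behaviours, but several slopes of its low probe set were within their SE of no slope. They were -0.002 ± 0.059 with sugar feeding, -0.032 ± 0.058 with plus maze and -0.054 ± 0.056 with locomotion (SE). With startle it was 0.11 ± 0.045 (SE), against 0.033 ± 0.067 (SE) in the bright Kcnip3 probe set. The bright one was also within its SE of no slope with plus maze and sugar feeding. No share over all genes with several probe sets is given, so no agreement particular to Kcn genes is read from the counts.

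Genes whose products bind or cluster potassium channels, such as Dlg and Cntnap scaffolds, were measured in 14 of 17 genes on the array, with 21 probe sets. For startle 1 had a positive slope at an unadjusted limma p under 0.05, Dlg1 (8.9% of all tested had one), and 2 a negative one, Cntnap1 and Adam23 (4.34% of all tested). Their slopes were 0.16, -0.11 and -0.21, and the second Dlg1 probe set had a slope of -0.02. In rats 8 and 9 there were 8 of the 21 above the other 7 (9.33% of all tested) and 1 below (17.6% of all tested). Of 6 genes for potassium pumps and cotransporters 5 passed the limit, and Atp1b3, a sodium pump beta subunit, had a slope of 0.13 with plus maze (limma adjusted p = 0.999). Of 3 Hcn genes, for the cation channels opened by hyperpolarisation, Hcn2 passed and had a slope of -0.29 with sugar feeding (limma adjusted p = 1.00). Every other slope of these 3 lists had an unadjusted p above 0.05, and 0 passed after adjustment.

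RefSeq promoters (assembly GRCr8) were matched by symbol for 50 of the 73 genes, and the 250 bases before the start of each were searched for 4 motifs on both strands. GGGCGG, the GC box, was in 28 of 50 (56%), against 32.4% of 27457 promoters of the same length. Among tested Kcn genes it was in 12 of 22 and among untested ones in 16 of 28, so its share was 54.5% and 57.1%. TATAAA was in 2 of 50 (4%, against 13.1%), CCAAT in 22% (against 34.3%) and TGACGTCA in 0 (against 1.70%). The Kcn promoters had a median of 13 CpG and 63.4% GC, against 6 CpG and 52% over all. A motif match is a description of the letters and not a bound site, and no array value bears on binding. The 3 below show the span of base composition among genes described above: Kcnc1 at chr1:106038997-106039246 on the plus strand (30 CpG, 74.4% GC), Kcnt1 at chr3:29081089-29081338 on the plus strand (16 CpG, 64.8% GC) and Kcnk2 at chr13:103438643-103438892 on the minus strand (9 CpG, 45.6% GC). Capitals mark GGGCGG or its reverse complement CCGCCC, with 3 in Kcnc1, 3 in Kcnt1 and 0 in Kcnk2, and each runs 5′ to 3′ on the gene's strand.
Kcnc1: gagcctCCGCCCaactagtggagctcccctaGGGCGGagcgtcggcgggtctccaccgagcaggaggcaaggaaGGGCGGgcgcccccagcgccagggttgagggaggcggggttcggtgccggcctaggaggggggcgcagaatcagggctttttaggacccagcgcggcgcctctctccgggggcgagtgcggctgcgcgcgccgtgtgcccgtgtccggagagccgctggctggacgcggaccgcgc
Kcnt1: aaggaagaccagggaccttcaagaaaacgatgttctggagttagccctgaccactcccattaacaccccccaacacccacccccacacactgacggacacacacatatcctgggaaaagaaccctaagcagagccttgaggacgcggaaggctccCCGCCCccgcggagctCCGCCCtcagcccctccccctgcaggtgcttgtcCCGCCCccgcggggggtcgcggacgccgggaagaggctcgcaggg
Kcnk2: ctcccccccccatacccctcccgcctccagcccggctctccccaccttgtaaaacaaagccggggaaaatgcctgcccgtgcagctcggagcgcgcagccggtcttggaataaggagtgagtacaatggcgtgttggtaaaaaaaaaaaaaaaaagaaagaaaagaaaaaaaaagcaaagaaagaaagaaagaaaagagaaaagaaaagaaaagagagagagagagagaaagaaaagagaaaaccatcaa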

How the data were processed

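RNA of the prefrontal cortex of 9 rats was hybridised to 1 array each. The deposited values are log2 expression from GCRMA, which corrects background and normalizes between arrays; the submitters' processing notes name GCRMA and R 2.6.2. Scanner files were not used here. The authors' correction can compress low values. The table held 15923 probe sets, of which 57 controls were left out, and 0 columns of other samples. Platform annotation gave 1 symbol for 12783 probe sets, several for 312 and none for 2771; 0 with several had a Kcn symbol.

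The lowest 40% by mean were left out, and limma 3.58.1 in R 4.3.3 fitted the slope per SD of each behaviour (lmFit, eBayes, 7 residual degrees of freedom, two-sided, Benjamini-Hochberg over 9520 probe sets). The procedure was checked on simulated data. Correlations used exact permutation tests over 362880 pairings for 9 rats and 5040 for 7, two-sided, in Python 3.11.15 (scipy 1.17.1, numpy 2.4.6, pandas 2.3.3), for 24 named relations; figures used matplotlib 3.10.9. Where rats 8 and 9 both lay beyond the other 7, the relation is read over those 7 rats. For Kcnj11 with startle and Kcna1 with locomotion, r without rats 1 and 3, which includes rats 8 and 9, is given beside it. With 1 array per rat, the spread holds animal and technical differences together, and the number of arrays limits the precision.

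Named genes are, per behaviour, the 3 genes of smallest p in each direction of slope, by the probe set with the highest mean, the first of each with full statistics; the 6 with the highest SD; textbook genes of each subfamily; genes with no probe set above the limit; and genes whose probe sets disagree. The single startle probe sets under an unadjusted p of 0.05, and the partner and marker genes with values, were named after their values were seen. The members, lists and tests were chosen with earlier results of these data known, among them that rats 8 and 9 stand apart. Alternatives were no filter, the top 30%, quantile normalization again, trend and robust moderation, ranks, the other 3 behaviours as covariates, array weights, a term for rats 8 and 9 or a fit without them, a fit without the 2 extreme rats, each rat left out in turn and 1 probe set per gene. The floor profile as a covariate was chosen after seeing the data.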

Additional observations from a re-analysis of the deposited data

Results flagged for a closer look

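The highest and lowest arrays of each of the 46 tested Kcn probe sets were compared with their neighbours, as the gap to the nearest rat divided by the whole range, against a 95% critical value of 0.493 for 9 arrays. A single array stood out in 5 of the 46 probe sets. By the critical value alone chance gives about 1 in 20 groups. The share over all tested probe sets was not computed, so no excess in Kcn genes is read from the count. In the low Kcnj4 probe set, rat 7 was highest at 6.44 against 4.38 for the next rat, a ratio of 0.693. In a low Kcnj6 probe set rat 7 was highest at 3.67 against 3.39, with 0.567. The low Kcnip3 probe set was highest in rat 3 at 3.71 against 3.32, with 0.712, and the low Kcnip2 probe set was lowest in the same rat at 3.50 against 3.95, with 0.543. Kcnq3 was highest in rat 9 at 3.54 against 3.24, with 0.696. Its mean over rats 1 to 7 was 3.18, under the limit of 3.22. The bright probe sets of Kcnj4, Kcnj6, Kcnip2 and Kcnip3 were not among the 5.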

How the results depend on the processing

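No paired analysis was possible because the rats form 1 group. The filters, the trend with robust moderation and 1 probe set per gene leave a fitted slope as it was, so they say nothing of its sign. Over the other 17 settings the 24 named slopes kept their sign in 404 of 408 values. Over all settings the lowest limma adjusted p of a named slope was 0.174, and 0 passed 0.05. The 4 that turned did so without the 2 extreme rats: Kcnk1 with locomotion to -0.13, Kcnc4 with locomotion to 0.057, Kcnv1 with sugar feeding to 0.060 and Kcnh1 with sugar feeding to 0.16. Counts of Kcn probe sets at an unadjusted limma p under 0.05 follow, each with the share of all tested probe sets in brackets. For startle, 9 (13.2%) became 16 of 108 with no filter (15.5%), 1 of 16 in the top 30% (12.5%) and 7 after quantile normalization (13.8%). The count was 5 with the other 3 behaviours as covariates (7.36%), 5 with a term for rats 8 and 9 (9.66%) and 2 without the 2 extreme rats (7.28%). It was 3 with the floor profile (7.59%), and 6 to 13 leaving out 1 rat (9.35% to 13.9%). After quantile normalization Kcna4 and low probe sets of Kcnip3 and Kcnc2 dropped out, and the low Kcnma1 probe set came in. With the floor profile only Kcnj11 remained of the 9, and Kcnh1 and the low Kcnma1 probe set came in. For locomotion, 0 (1.96%) became 1 by ranks (2.32%), 1 with the other 3 behaviours (2.48%), 2 with the term (3.18%), 1 without rats 8 and 9 (4.37%), 3 without the extreme rats (13.2%) and 0 to 4 leaving out 1 rat (1.63% to 9.84%). For plus maze, 1 (2.99%) became 0 in the top 30% (2.56%), 2 after quantile normalization (2.85%), 0 by trend and robust moderation (2.87%), 0 with the other 3 behaviours (1.92%), 3 with array weights (12.2%), 0 with the term (3.26%), 0 without rats 8 and 9 (3.58%), 2 without the extreme rats (1.5%) and 0 to 2 leaving out 1 rat (2.07% to 4.36%). For sugar feeding, 0 (1.4%) became 1 by ranks (1.32%), with the other 3 behaviours (1.73%), with array weights (1.67%), with the term (2.52%), without rats 8 and 9 (2.75%) and with the floor profile (1.64%), and 0 to 5 leaving out 1 rat (1.08% to 14.0%). A range above 1 log2 unit was found in 10 of 46 Kcn probe sets (18.7%) and in 5 of 46 without rats 8 and 9 (7.68%). It was found in 1 of 16 in the top 30%, 5 of 32 with 1 probe set per gene and 8 to 10 leaving out 1 rat. For these last counts no share of all probe sets is given. The top 30% and 1 probe set per gene hold fewer probe sets by construction, and other causes were not tested. Signal near the floor limits the dim probe sets.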
